A study of Mus musculus with 12 samples.

Results

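FRA-1 binding was examined at 8 cytokine genes, Tnf, Il10, Il12a, Il12b, Il23a, Il27, Osm and Lif, out of 21631 RefSeq protein-coding genes. They were chosen by name, as the TNF, IL-10, IL-12 and IL-6-type cytokines other than Il6. A peak was counted for a gene if the deposited gene column named it or if the peak lay within 20 kb of the gene body. Chromatin immunoprecipitation sequencing (ChIP-seq) with an antibody against FRA-1, the AP-1 subunit encoded by Fosl1, was performed on peritoneal macrophages of 8-week-old mice. Adherent cells received LPS, apoptotic cells in a ratio of 1 to 5, or no stimulus, for 1 h, and each condition had 3 replicates. The LPS dose is 10 µg/mL in the study's design text and 1 µg/mL in the sample records. The sample records describe thioglycollate elicitation (2.5 mL of 4% medium, harvest after 72 h) in mice of a 129/C57Bl6 background. The design text names C57Bl/6 mice and plain lavage. No transgene or deletion is named for these samples, which were plated over night before stimulation. The records name 3 mice, each in all 3 conditions, but the labels and the design text disagree on the number of mice. The score columns carry no mouse label, so the numbers below follow the column order and pair nothing. P-values therefore measure only the spread between these samples.

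These genes encode the secreted signals by which an activated macrophage instructs other cells. TNF acts through TNF receptors on NF-κB and cell death pathways. IL-10 restrains macrophage activation through STAT3. IL-12, IL-23 and IL-27 are heterodimers, so that Il12b (p40) is shared by IL-12, with Il12a (p35), and IL-23, with Il23a (p19), while the Il27 product p28 pairs with EBI3. Oncostatin M (Osm) and LIF signal through receptors that contain gp130, the product of Il6st. AP-1 factors such as FRA-1 bind DNA as dimers with JUN proteins, at promoters and often at distant enhancers, and many cytokine genes carry AP-1 sites.

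The tables list peaks per replicate with a score and no read counts, so that the sequencing depth is unknown. From its values, the score appears to be a Phred-scaled peak p-value, which grows as p shrinks. The lowest listed score was 50.01, and scores were not scaled between replicates. Replicates held 20981 to 28314 peaks without stimulation, 39728 to 63010 after LPS and 31501 to 79474 with apoptotic cells. They fell into 2 classes by smallest peak width. The narrow class, with a smallest peak of at most 116 bp, held unstimulated replicate 3, LPS replicates 1 and 3 and apoptotic cell replicate 3, and the wide class, from 158 bp upwards, the other 5. In each replicate 8.26 to 14.4% of peaks shared its most common score, so that equal scores recur. Each score is therefore also given as its percentile among the peaks of its own replicate. The macrophage identity of the cells could not be checked, since a peak is no measure of expression. FRA-1 peaks in any replicate lay within 20 kb of 7 of 7 macrophage marker genes, but also of 3 of 3 T cell, 3 of 3 B cell and 4 of 4 neutrophil marker genes, and only 0.888% of all coding genes had no peak in any replicate. A peak in at least 2 LPS and 0 unstimulated replicates was found at 1 of the 7 macrophage, 3 of the 3 T cell (the adjoining genes Cd3e, Cd3d and Cd3g), 1 of the 3 B cell and 0 of the 4 neutrophil markers, against 11.6% of coding genes.

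Every one of the 8 cytokine genes had a FRA-1 peak within 20 kb in at least 1 replicate of each condition, as did 71.5% of all coding genes. Peaks in at least 2 replicates were found at 2 of 8 genes without stimulation (Il10 and Il23a), against 45.2% of all coding genes. After LPS they were found at 7 of 8 genes, all but Il12a, against 74% of coding genes. With apoptotic cells they were found at 5 of 8 (Tnf, Il10, Il12a, Il23a and Il27), against 70.3%. With equal numbers of top-scoring peaks per replicate the LPS count fell to 3 and the apoptotic cell count was 4. The share of coding genes under this setting was not computed, and equal scores at the cut were taken in order of position. The cytokine genes are short, with a median length of 5576.5 bp against 17329 bp for all coding genes, and so have smaller search windows.

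**Figure D1:**
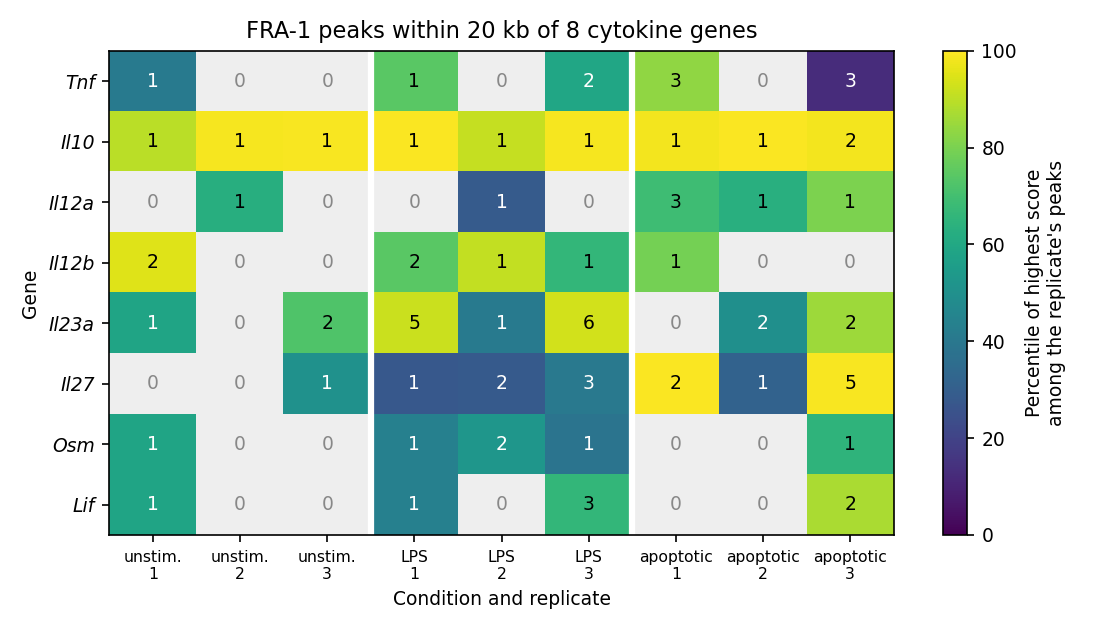
Number of FRA-1 peaks within 20 kb of each gene (printed in the cell) and percentile of the highest score among all peaks of the replicate (colour, 0 to 100). Columns are the 3 replicates of each condition, and grey cells hold no peak. Il10 alone is filled in all 9 columns, and unstimulated replicate 2 is empty except at Il10 and Il12a.

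By replicate, the peaks at these genes numbered 6, 2 and 4 without stimulation, 11, 8 and 16 after LPS, and 10, 5 and 15 with apoptotic cells. All LPS replicates lay above all unstimulated ones, while the apoptotic cell replicates overlapped the unstimulated ones. The order broadly followed the total number of peaks, with exceptions such as apoptotic cell replicate 3, which had the most peaks in all. Per 10000 peaks of the same replicate, the values were 2.37, 0.953 and 1.41 without stimulation, 2.39, 2.01 and 2.54 after LPS, and 2.45, 1.59 and 1.89 with apoptotic cells. On this scale LPS replicates 1 and 3 lay just above the highest unstimulated replicate and LPS replicate 2 below it, so that the 3 conditions overlapped. Within the narrow class, the unstimulated replicate had 4 peaks at these genes and the LPS replicates 11 and 16. In the wide class it was 6 and 2 for unstimulated cells and 8 for LPS. What part the unequal numbers of peaks play was not tested.

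**Figure D2:**
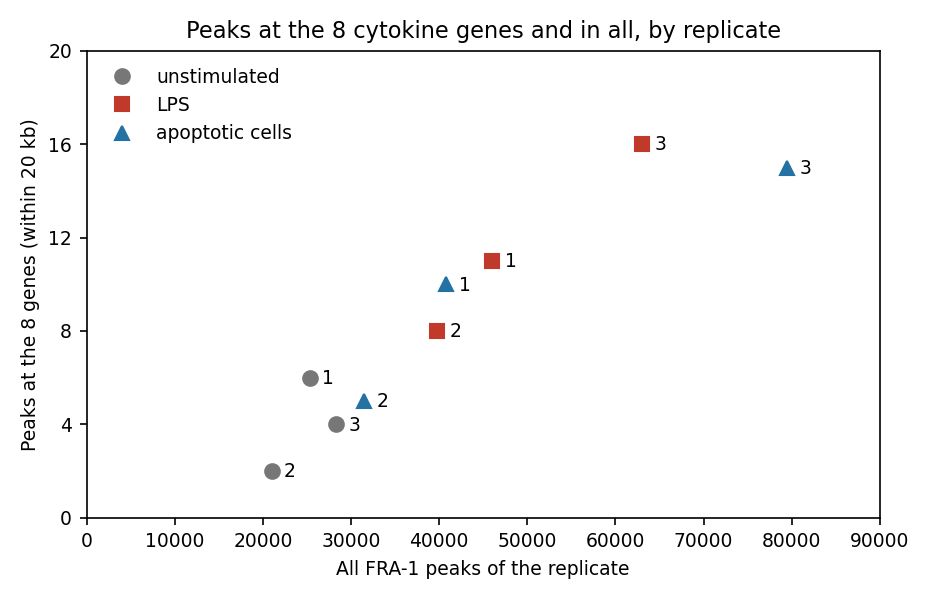
Peaks at the 8 cytokine genes (vertical axis) against all peaks of the same replicate (horizontal axis), with the replicate number beside each point. The values run from 2 of 20981 in unstimulated replicate 2 to 16 of 63010 in LPS replicate 3, and broadly follow the total with exceptions, such as 15 of 79474 in apoptotic cell replicate 3.

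Merging touching or overlapping peaks across replicates gave 53 distinct regions at the 8 genes. Of these, 43 had a peak in 1 replicate only and 10 in at least 2, beside 89.7% of all 300608 regions with a peak in 1 replicate. A peak in at least 2 LPS and 0 unstimulated replicates was listed in 7 regions (4.2% of all regions met this rule), and 0 regions had at least 2 apoptotic cell and 0 unstimulated replicates (0.781% of all regions). LPS replicates 1 and 3 supplied 5 of the 7, and in 4 of them they were the only replicates with a peak (2.54% of all regions). Without LPS replicate 3 the 7 regions became 0, and without LPS replicate 1 they became 2. The rule is stricter there, since both remaining LPS replicates must have a peak. With equal numbers of top-scoring peaks per replicate, 20981 each, 1 was left. Equal scores at the cut were taken in order of position, so this count can depend on how ties are broken. Only 30 of the 53 regions had a cytokine gene of the list as the nearest coding gene, and only 5 lay inside such a gene. Of the 8 genes, 3 (Tnf, Il12b and Il27) had a peak inside the gene body in any replicate, against 72.6% of all coding genes. The 2 values are not for bodies of like size, since the median length was 5576.5 bp for these genes and 17329 bp for all coding genes.

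**Figure D3:**
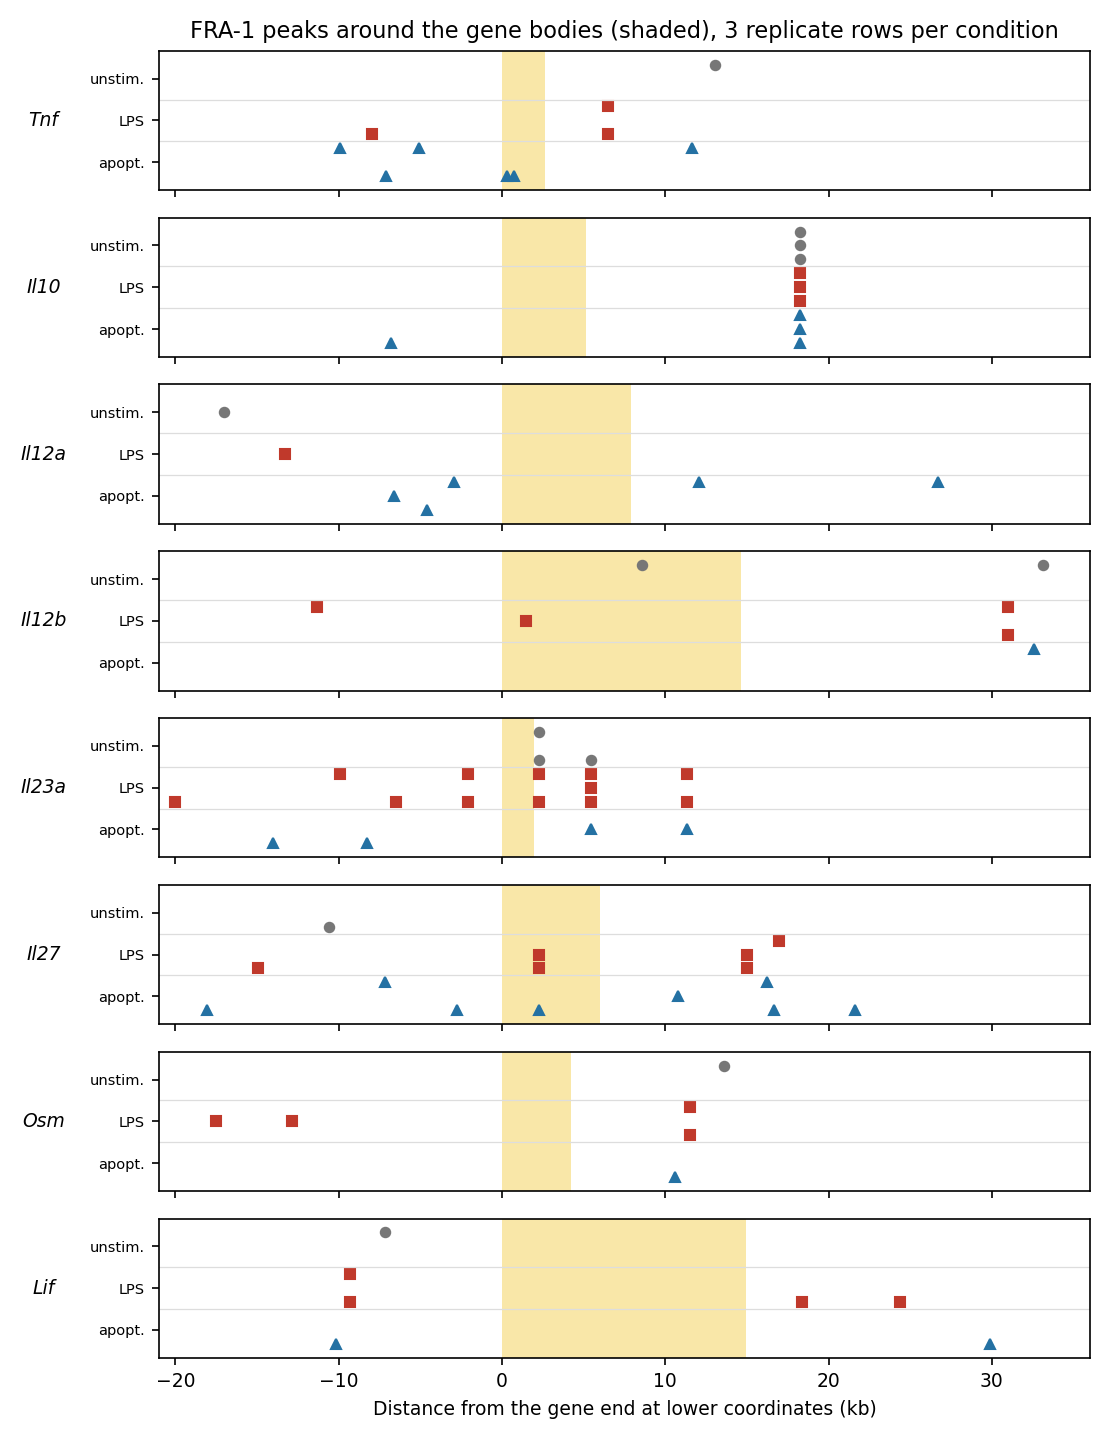
Centres of the regions with a FRA-1 peak (horizontal axis, distance in kb from the gene end at lower coordinates) for each gene, whose body is shaded. Each row of a panel is a replicate, with 3 rows for unstimulated cells (circles), LPS (squares) and apoptotic cells (triangles). Vertical stacks at Il10 and Il23a are the regions found in the most replicates, and most other peaks stand alone.

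The start sites could be looked at for only some of the genes. RefSeq sequences from 250 bases before to 50 after the start (GRCm38.p6) were at hand for 4 of the 8 genes, in 5 windows, and 0 of the 5 overlapped a peak of any replicate, beside 4.65% of all 32851 such windows, so that a count of 0 in 5 says nothing particular of these genes. Il10, Il23a, Il27 and Osm had no such window, and the region 236 bp from an end of Il23a, with peaks in 4 replicates, was therefore not placed relative to its start. The letters TGANTCA, the AP-1 heptamer with any base in the middle, were found in 1 of the 5, at Lif, and in 7.81% of all windows. TGACGTCA, the related CRE octamer (1.79% of all windows), and a consensus form of the NF-κB site (1.63%), were found in 0 of the 5. Both strands were searched, for exact matches only. The NF-κB site was searched in 1 strict form, with most of its bases fixed. Variant forms of the 3 motifs were not searched, so a count of 0 does not mean that such sites are absent. The 250 bases before the start are shown for Lif, which holds the heptamer (capitals) without a listed peak. They are also shown for Tnf and Il12b, both genes that macrophages induce on LPS, whose windows hold no exact match to the 3 motifs. The sequences lie, in this order, at chr11:4257318-4257567 (plus strand), chr17:35202008-35202257 (minus strand) and chr11:44399813-44400062 (plus strand).
Lif: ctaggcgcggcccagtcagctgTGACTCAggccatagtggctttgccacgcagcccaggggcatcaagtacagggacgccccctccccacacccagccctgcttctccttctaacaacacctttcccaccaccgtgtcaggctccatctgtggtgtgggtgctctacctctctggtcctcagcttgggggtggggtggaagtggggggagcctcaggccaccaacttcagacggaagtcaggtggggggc
Tnf: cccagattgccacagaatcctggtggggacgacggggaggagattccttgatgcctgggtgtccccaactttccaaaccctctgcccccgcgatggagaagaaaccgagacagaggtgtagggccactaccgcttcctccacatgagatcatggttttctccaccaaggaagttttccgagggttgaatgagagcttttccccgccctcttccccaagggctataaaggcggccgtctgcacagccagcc
Il12b: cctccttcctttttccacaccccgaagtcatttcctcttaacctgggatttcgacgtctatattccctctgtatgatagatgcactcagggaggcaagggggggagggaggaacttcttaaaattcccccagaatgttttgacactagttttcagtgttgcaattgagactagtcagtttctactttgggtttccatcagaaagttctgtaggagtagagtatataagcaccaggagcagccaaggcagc
The heptamer at Lif begins at position -228 from the start. A motif match is a description of the letters, and the peak sequences themselves were not analysed here.

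Il10, the anti-inflammatory cytokine of the group, carried the strongest and most reproducible FRA-1 region. It lies on chromosome 1 from 131019845 to 131024970 (GRCm38), and the region at chr1:131037992-131038174 lies 13022 bp beyond its end at higher coordinates, in no coding gene. Il10 is the nearest coding gene, and Mapkapk2 follows at 15526 bp. All 9 replicates had a peak there, and 13.3% of coding genes had a peak in all 9 replicates at any position. The scores were 221.71, 329.5 and 459.41 without stimulation, 488.55, 220.27 and 509.33 after LPS, and 328.76, 414.09 and 265.14 with apoptotic cells. These are high ranks in every library, from the 89.8th to the 99.3rd percentile. The means were 337 ± 119 without stimulation, 406 ± 161 after LPS and 336 ± 74.7 with apoptotic cells (SD, n = 3 each), and the conditions were not separated. The ratio of the means was 1.21 for LPS against unstimulated cells (exact permutation test, two-sided, p = 0.6) and 0.997 for apoptotic cells against unstimulated cells (exact permutation test, p = 0.9). The lowest scores, 220.27 and 221.71, came from wide-class replicates. The other wide-class replicates had 329.5, 328.76 and 414.09, and narrow-class apoptotic cell replicate 3 had 265.14. A region with a peak in all 9 replicates lay near 4.96% of coding genes, and of all regions 0.456% were of this kind. Besides this region, apoptotic cell replicate 3 had a peak 6703 bp below the gene, with a score of 128.9.

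Il23a, which encodes the p19 subunit particular to IL-23, had the densest cluster of peaks after LPS. It lies on chromosome 10 from 128296140 to 128298084 between Stat2 and Pan2. The peaks within 20 kb numbered 1, 0 and 2 without stimulation, 5, 1 and 6 after LPS, and 0, 2 and 2 with apoptotic cells. LPS replicates 1 and 3 stand above all others, and LPS replicate 2 lies within the range of the unstimulated cells. The mean was 4.00 ± 2.65 peaks after LPS and 1.00 ± 1.00 without stimulation (SD, n = 3 each; exact permutation test, two-sided, p = 0.3).

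The region nearest to Il23a, chr10:128298320-128298493, begins 236 bp beyond the gene end at higher coordinates. Unstimulated replicates 1 and 3 had a peak there with scores of 140.93 and 150.73 (58.5th and 50.4th percentile). LPS replicates 1 and 3 had scores of 222.19 and 385.18 (82.1st and 93.2nd percentile). Both LPS scores were above both unstimulated scores, but LPS replicate 2, unstimulated replicate 2 and all apoptotic cell replicates had no listed peak, and the exact permutation test over all replicates, with unlisted peaks set to 0, gave p = 0.5. A further region, chr10:128301513-128301684, lies 3429 bp from Il23a and 1649 bp from Pan2, a subunit of a poly(A) nuclease. It had a peak in all 3 LPS replicates, with scores of 210.34, 119.58 and 285.36, in unstimulated replicate 3 with 186.51 and in apoptotic cell replicate 2 with 125.66. The unstimulated score lay inside the LPS range (exact permutation test, two-sided, unlisted peaks set to 0, p = 0.2).

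Near Il23a, 2 more regions had a peak in LPS replicates 1 and 3 and in no unstimulated replicate. The region at chr10:128293915-128294181 lies 1959 bp below the gene and 1062 bp from Stat2, and had scores of 290.79 and 192.86. The region at chr10:128307409-128307567 lies inside Pan2 and had scores of 127.41 and 156.41, beside 133.78 in apoptotic cell replicate 2. The other 5 regions of this window had a peak in 1 replicate each and lie inside Stat2, the interferon signal transducer. Peaks near Il23a thus lie in a gene-dense stretch that several genes share.

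**Figure D4:**
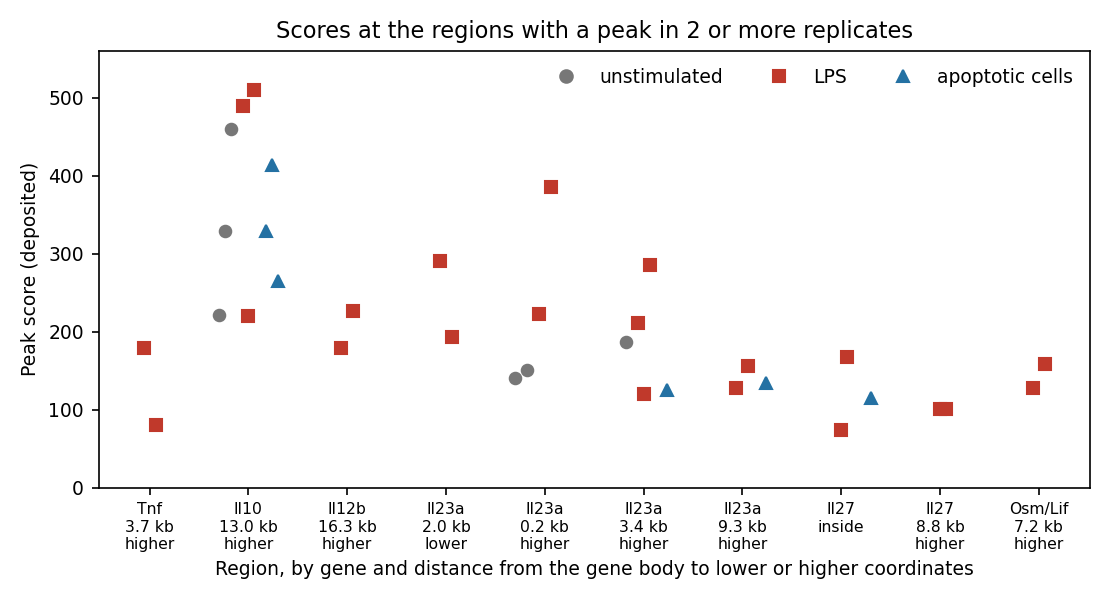
Deposited peak scores (vertical axis) in each replicate at the 10 regions found in 2 or more replicates, ordered by gene (horizontal axis, with the distance from the gene body towards lower or higher coordinates). Circles are unstimulated, squares LPS and triangles apoptotic cell replicates, drawn side by side in replicate order. Il10 holds all 9 symbols, the region next to Il23a holds 2 circles below 2 squares, and the scores at Tnf, Il12b and Osm/Lif come from LPS replicates 1 and 3 only.

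Il12b, which encodes the p40 subunit of IL-12 and IL-23, lies on chromosome 11 from 44400063 to 44414677. Its peaks numbered 2, 0 and 0 without stimulation, 2, 1 and 1 after LPS, and 1, 0 and 0 with apoptotic cells. The highest scores after LPS were 178.77, 214.6 and 226.93, against 251.97 in the only unstimulated replicate with a peak. LPS replicate 2 had a peak inside the gene, chr11:44401408-44401599, centred 1440 bp after the transcription start, with a score of 214.6 (91.0th percentile), which is the only peak the deposited gene column assigns to Il12b. Unstimulated replicate 1 had a peak deeper inside the gene, centred 8554 bp after the start, with 251.97 (94.9th percentile). The single region found more than once, chr11:44430992-44431103, lies 16315 bp beyond the 3′ end and had scores of 178.77 and 226.93 in LPS replicates 1 and 3. The 3 LPS replicates thus did not share a position at this gene.

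Il12a, which encodes the p35 subunit of IL-12, was the only one of these genes with peaks in more apoptotic cell than LPS replicates. This held within 20 kb. Within 50 kb the difference in replicates, LPS minus apoptotic cells, was 0 instead of -2. It lies on chromosome 3 from 68690644 to 68698550, and the nearest other coding gene lies at least 47024 bp from each of its peaks. Its peaks numbered 0, 1 and 0 without stimulation, 0, 1 and 0 after LPS, and 3, 1 and 1 with apoptotic cells. Each of its 7 regions had a peak in 1 replicate only. With apoptotic cells, replicates 1, 2 and 3 had a peak centred at -2951, -6637 and -4582 bp from the transcription start, with scores of 149.46, 154.25 and 146.98. Replicate 1 also had peaks centred 12047 and 26735 bp after the start, with scores of 120.65 and 71.03. The highest scores with apoptotic cells were above those after LPS, where only replicate 2 had a peak (100.47). With unlisted peaks set to 0, the groups did not overlap (exact permutation test, two-sided, p = 0.1), as held in this direction for 1.62% of coding genes. The unstimulated peak had 150.95, inside the range with apoptotic cells.

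Il27, which encodes the p28 subunit of IL-27, lies on chromosome 7 from 126589009 to 126595035, next to Apobr and Cln3. Its peaks numbered 0, 0 and 1 without stimulation, 1, 2 and 3 after LPS, and 2, 1 and 5 with apoptotic cells. Both stimulated groups thus had a peak in 3 of 3 replicates and unstimulated cells in 1 of 3. For LPS this direction turned, to a difference of -1 replicates, with scores at or above the replicate's median and with equal numbers of peaks. The region inside the gene, chr7:126591175-126591409, had scores of 73.74 and 167.37 in LPS replicates 2 and 3 and of 114.92 in apoptotic cell replicate 3. A second region shared by LPS replicates 2 and 3, chr7:126603831-126604162, lies 8796 bp beyond the end at higher coordinates and had scores of 100.05 and 100.21. These are low ranks, at the 28.4th and 12.0th percentile. The highest scores of this window, 391.4 and 304.08 with apoptotic cells, lay inside Cln3, a lysosomal membrane protein gene, and 190 bp from it, each in 1 replicate.

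Tnf, the early proinflammatory cytokine, lies on chromosome 17 from 35199367 to 35202007 between Ltb and Lta, the lymphotoxin genes. Its peaks numbered 1, 0 and 0 without stimulation, 1, 0 and 2 after LPS, and 3, 0 and 3 with apoptotic cells. The region that the deposited column assigns to Tnf and Lta, chr17:35205750-35206011, is centred at -3874 bp from the Tnf start and lies 172 bp from Lta. It had scores of 178.77 and 79.88 in LPS replicates 1 and 3 (74.5th and 7.15th percentile). Inside Tnf, apoptotic cell replicate 3, which has the most peaks of all, had 2 peaks with a score of 68.39 each, at the 8.86th percentile. The remaining 6 regions had a peak in 1 replicate each, and all lie nearer to Ltb, Lta or Lst1 than to Tnf.

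Osm and Lif, the IL-6-type cytokines that signal through gp130, lie next to each other on chromosome 11, from 4236785 to 4241026 and from 4257568 to 4272514, and their windows share 3 regions. The shared region chr11:4248231-4248339 lies between them, 7205 bp from Osm and centred at -9283 bp from the Lif start, and had scores of 127.75 and 158.33 in LPS replicates 1 and 3. Apoptotic cell replicate 3 (126.49) and unstimulated replicate 1 (140.93) had peaks at other positions of the same stretch. Osm had a further 2 peaks in LPS replicate 2, both with a score of 126.89, inside or next to Castor1, an arginine sensor gene. Lif had a further 2 peaks in LPS replicate 3 and 1 in apoptotic cell replicate 3 beyond its 3′ end. Neither gene had a peak inside its body in any replicate.

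LPS against unstimulated cells was compared gene by gene. At Il12b, Il27 and Osm, 3 of 3 LPS replicates had a peak and 1 of 3 without stimulus, for which Fisher's exact test gave p = 0.4 each (two-sided). The direction for Il27 turned with higher scores only, as given above, and its difference was 0 within 50 kb. For Osm the difference fell to 0 with scores at or above the replicate's median, with equal numbers of peaks and within 5 kb. For Il12b it was 0 within 5 kb but stayed at 2 in both score settings. For Tnf and Lif it was 2 against 1, for Il23a 3 against 2, for Il10 3 against 3 and for Il12a 1 against 1 (exact p = 1 each). Within the wide class the difference was -1 for Tnf and Lif, but also for Il10, which had a peak in every replicate. That class holds 2 unstimulated replicates and only 1 LPS replicate, so the sign there shows no direction. No gene (0 of 8) met the rule of at least 2 LPS and 0 unstimulated replicates, which 11.6% of coding genes met, and 0 of 8 met the reverse (1.41%). With every LPS replicate required it was 0 of 8 against 3.9%. None (0 of 8) lacked a peak in all unstimulated replicates, against 21.2% of coding genes. In no gene (0 of 8) were the highest scores of all LPS replicates above those of all unstimulated ones, which held for 11% of coding genes, nor the reverse (0 of 8, 0.467%). With groups of 3, no exact test can go below 0.1, so a threshold of 0.05 is out of reach. The count of 0 rested mostly on unstimulated replicate 1. Without it, 4 of 8 genes (Tnf, Il12b, Osm and Lif) met the rule, which is looser with fewer unstimulated replicates. Without unstimulated replicate 3 it was 1 of 8, Il27. The share of coding genes under this looser rule was not computed. Osm and Lif are not separate here, since their only unstimulated peak is the same one. They also share a region in LPS replicates 1 and 3.

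For apoptotic cells against unstimulated cells, Il12a and Il27 had 3 of 3 and 1 of 3, for which the same exact test gave p = 0.4 each. Tnf had 2 against 1 and the other 5 genes had equal numbers (exact p = 1 each). Again 0 of 8 genes had at least 2 apoptotic cell and 0 unstimulated replicates, against 10.8% of coding genes, and 0 of 8 the reverse (1%). With every apoptotic cell replicate required it was 0 of 8 against 3.03%. The highest scores overlapped at all 8 genes, while all apoptotic cell replicates were above for 6.48% of coding genes and all unstimulated ones for 1.08%. This comparison shares its unstimulated replicates with the former.

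The 2 stimuli were also set against each other. Il12b and Osm had a peak in 3 of 3 LPS and 1 of 3 apoptotic cell replicates, and Il12a in 1 of 3 and 3 of 3 (Fisher's exact p = 0.4 each). With unlisted peaks set to 0, the highest scores did not overlap for these 3 genes (exact permutation test, p = 0.1 each). For Osm the lowest LPS score was 126.89 and the only apoptotic cell score 126.49, on scores not scaled between replicates. For Il12b and Osm all LPS replicates were above all apoptotic cell replicates, as held for 7.83% of coding genes. For Il12a all apoptotic cell replicates were above, as held for 1.62%. By percentile within the replicate, Il12a still did not overlap, but Il12b (79.1 with apoptotic cells against 66.1 to 91.0 after LPS) and Osm (65.0 against 38.6 to 52.4) did not keep all LPS replicates on top. No gene (0 of 8) had at least 2 LPS and 0 apoptotic cell replicates (2.75% of coding genes) or the reverse (3.08%).

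Among 12 receptor genes of these cytokines, 8 had a peak in at least 2 unstimulated replicates, 10 after LPS and 9 with apoptotic cells, beside the 45.2%, 74% and 70.3% of all coding genes. Tnfrsf1b, the second TNF receptor, Il12rb2, Il23r, Il6st and Osmr had a peak in all 9 replicates, as did 13.3% of coding genes. None of the 12 (0) met the rule of at least 2 LPS or 2 apoptotic cell and 0 unstimulated replicates. Among 10 related cytokine genes, 2, 8 and 6 had a peak in at least 2 replicates without stimulation, after LPS and with apoptotic cells, to be read against the same shares. Lta, next to Tnf, had the same highest scores as Tnf in every replicate, so it adds nothing separate from Tnf. Il19, an IL-10 family cytokine, had scores of 178.77 and 245.97 in LPS replicates 1 and 3 and of 53.42 and 175.18 in apoptotic cell replicates 1 and 2, and no unstimulated peak. Ctf1, the gp130 cytokine cardiotrophin 1, had scores of 154.25 and 77.61 in apoptotic cell replicates 2 and 3 and of 226.93 in LPS replicate 3, and no unstimulated peak. Of the 33 genes in these pathway lists only Il19 met the rule for LPS, against 11.6% of coding genes, and only Il19 and Ctf1 that for apoptotic cells, against 10.8%, so that neither count was above the general share. Of 11 signalling genes, 8 had a peak in at least 2 replicates in each condition, beside the same shares. The kinase gene Ripk1 had 2 unstimulated, 0 LPS and 3 apoptotic cell replicates, a pattern for which 1.41% of coding genes met the rule of at least 2 unstimulated and 0 LPS replicates.

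Other cytokine groups were set beside these for scale, without a test. Of 10 interleukin 1 family genes, 4 had a peak in at least 2 LPS and 0 unstimulated replicates, and of the 10 CXC chemokine genes found, 2 did, against 0 of the 8 cytokine genes and 11.6% of all coding genes. Among the 4, Il36rn and Il1f10 had the same scores in LPS replicates 1 and 2 (107.95 and 166.55). They are therefore not counted as separate results.

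Genes with a peak in exactly the same replicates were sought over all coding genes more than 200 kb away, and ordered by the Euclidean distance between the 9 percentiles of the highest scores. Il10 shared its pattern of 9 replicates with 2876 genes, nearest Lpp, Garem1 and Mep1b (distances 3.25, 4.27 and 4.27 percentile points). Il23a, with 7 replicates, shared it with 139 genes, nearest Zbtb8a, Gm1110 and Fetub (18.4, 27.3 and 36.5). Il27, also with 7, shared it with 491, nearest Anapc11, Npb and Pcyt2 (45.9 each). The patterns of the other genes were rarer. Tnf and Osm had different patterns, of 5 replicates each, and each was found in 106 genes, nearest Ehd2, Nmu and Ralb for Tnf (28.4, 29.6 and 39.6) and Olfr728, Olfr729 and Man2b1 for Osm (up to 31.8). Lif shared its 4 replicates with 94 genes, nearest 1700066B19Rik, Bivm and Gsdmc4 (16.0 to 20.1). Il12a and Il12b, again with different patterns, each shared theirs with 29 genes, or 0.134% of coding genes. The nearest were 4930407I10Rik, Ube2ql1 and Cldnd1 for Il12a (23.4, 29.0 and 42.2) and Htatsf1, Flt3 and Nnmt for Il12b (29.8, 44.1 and 50.2). Each pattern was thus shared with 29 or more genes, and a shared pattern says nothing of shared control.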

How the data were processed

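The authors deposited 1 table of peaks per condition, without a header, in which each genomic segment carries a score per replicate (−1 without a peak), a count of replicates and an assigned gene. The score is not normalized and the depth is unknown. The submitters' processing notes name BWA 0.7.14, bedtools, mm10 and GRCm38, and the caller behind the deposited peaks is not given in the sources used here. The re-analysis of the raw reads in the paper, with Trimmomatic, Bowtie2 and MACS2, was not used. The 3 pooled inputs were not used. Repeated rows were dropped, abutting segments of equal score joined into peaks, and touching or overlapping peaks of the 9 replicates merged into regions. Gene positions were RefSeq GRCm38.p6, in which 11681 of 12321 deposited symbols were found, and Il36a, Il36b, Il36g and Il36rn were matched through synonyms. The strand was known for Tnf, Il12a, Il12b and Lif only. Named genes were the 8 cytokine genes, pathway genes with a peak in at least 2 stimulated and 0 unstimulated replicates, and the 3 most alike genes of each. The genes and lists were chosen with earlier results of these data known. Ripk1, the marker genes Cd3e, Cd3d and Cd3g, the interleukin 1 family genes Il36rn and Il1f10, and the receptor genes with a peak in all 9 replicates were named after their values were seen. Fisher's exact tests and exact permutation tests were two-sided. Joining and windows were tested on simulated data. A planned motif search in peaks was not run, for lack of a genome sequence here. Alternatives were other distances, assignments, scores, numbers of peaks, numbers of replicates, peak width classes and leaving out each replicate. The shares of all coding genes were not recomputed under them. Software was matplotlib 3.10.9, scipy 1.17.1, numpy 2.4.6 and pandas 2.3.3, under Python 3.11.15.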

Additional observations from a re-analysis of the deposited data

How the results depend on the processing

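Under the rules reported, 2, 7 and 5 of the 8 genes had a peak in at least 2 unstimulated, LPS and apoptotic cell replicates, and 0 had at least 2 in 1 condition and 0 in another. The cytokine genes had 53 regions, 7 of them with at least 2 LPS and 0 unstimulated replicates and 0 with at least 2 apoptotic cell and 0 unstimulated replicates. A score minimum of 100 and peak centres inside the window kept these counts within 1.5 times. Only peaks inside the gene left 5 regions, with 0, 1 and 0 genes in at least 2 replicates, and 1 gene and 1 region in LPS but not unstimulated cells. Within 5 kb there were 16 regions, 1, 3 and 3 genes, 2 genes in LPS and 3 in apoptotic but not unstimulated cells, 1 in apoptotic cells but not LPS, and 3 LPS regions. Within 50 kb there were 111 regions, 11 LPS regions and 7 genes with unstimulated peaks. The deposited gene column alone gave 7 regions, 1, 2 and 1 genes, 1 LPS region and 1 gene in each of LPS or apoptotic but not unstimulated cells and LPS or apoptotic cells but not the other. The nearest coding gene alone gave 30 regions, 4 LPS regions, 3 genes with apoptotic cell peaks, 2 genes in LPS but not unstimulated cells and 1 each in apoptotic but not unstimulated, unstimulated but not apoptotic, and LPS but not apoptotic cells.

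Scores at or above the replicate's median left 31 regions, 2 LPS regions and 4 genes with LPS peaks, with 1 gene in LPS but not unstimulated cells and 2 in apoptotic cells but not LPS. Equal numbers of peaks left 29 regions, 1 LPS region and 3 genes with LPS peaks, with 2 genes in apoptotic cells but not LPS. In that setting equal scores at the cut were taken in order of position. In the width classes all replicates of a condition were required, which is 1 replicate where a class holds 1. The narrow class gave 33 regions, 14 of them in apoptotic but not unstimulated cells, 4 genes in each stimulus but not unstimulated cells and 1 gene in either stimulus but not the other. The wide class gave 26 regions, 1 gene with unstimulated and 3 with apoptotic cell peaks, and 1 gene each in LPS or apoptotic but not unstimulated cells and in LPS but not apoptotic cells. A peak in at least 1 replicate gave 8 genes in unstimulated and in apoptotic cells, 20 LPS regions and 26 apoptotic cell regions. A peak in all 3 gave 1 and 3 genes and 0 LPS regions. Leaving out unstimulated replicate 3 and LPS replicate 2 together, chosen after seeing the data, gave 1 gene with unstimulated peaks and 1 each in LPS or apoptotic but not unstimulated cells and in apoptotic cells but not LPS. The replicates with a peak after LPS minus those without stimulation turned to -1 for Tnf and Lif in the wide class and for Il27 with scores above the median and with equal numbers of peaks. In the wide class, with 2 unstimulated replicates and 1 LPS replicate, Il10 also gave -1. For single genes, 275 of 504 alternative values were exactly equal, 225 moved and 4 changed sign. They are differences of replicate counts, so a value can move through the number of replicates alone. For LPS against unstimulated cells, leaving out a replicate of either condition moved even Il10, which had a peak in every replicate. The causes were not tested.

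Leaving out each replicate in turn gave 1 to 2 genes with unstimulated, 5 to 7 with LPS (5 without LPS replicate 1 or 3) and 3 to 5 with apoptotic cell peaks (3 without replicate 3). It gave 0 to 4 genes in LPS and 0 to 1 in apoptotic but not unstimulated cells, 0 to 2 in LPS but not apoptotic cells (2 without apoptotic cell replicate 3), 0 to 1 in apoptotic cells but not LPS (1 without LPS replicate 2), 0 to 8 LPS regions and 40 to 52 regions in all. The minimum of 2 replicates was kept throughout, which is stricter for a condition that lost a replicate. No paired analysis was possible because nothing ties a score column to a mouse. Motifs in peaks were not run. Depth is unknown, so an unlisted peak is not an absence of binding.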
